A study of Mus musculus with 18 samples.

Results

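The sphingosine-1-phosphate (S1P) system was followed in mouse lung macrophages through 10 genes: the receptors S1pr1, S1pr2, S1pr3, S1pr4 and S1pr5, the kinases Sphk1 and Sphk2, the lyase Sgpl1, the phosphatase Sgpp1 and the transporter Spns2. They were taken by gene symbol from a table of 21254 genes, and all 10 were found and passed the filter on low counts, which kept 15811 genes. Lungs were taken 24 h after mice had breathed nebulized lipopolysaccharide (LPS) of Pseudomonas aeruginosa (12.5 mg in 5 ml of PBS, over 15 min), and each group had 3 libraries. The CD45+CD11b+ cells were sorted by flow cytometry into monocyte-derived macrophages (moMs, MHC-II-Ly6C+), transitional interstitial macrophages (tnsIMs, MHC-II+Ly6C+, written trIMs in the labels) and mature interstitial macrophages (matIMs, MHC-II+Ly6C-). The Ezr-KOm mice carried floxed Ezr and Cre driven by the Cx3cr1 promoter, and the WT mice carried the same Cre with an intact Ezr. Both were on a C57BL/6 background and 3 to 5 months old, and all of them had received LPS, so no untreated level was analysed here. Cx3cr1 is also used by cells other than the sorted ones, which limits how far the deletion can be placed in 1 cell type.

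S1P is a lipid messenger made from sphingosine by the sphingosine kinases Sphk1 and Sphk2. Spns2 carries it out of the cell, and it acts on G protein-coupled receptors, of which S1pr1 is best known for guiding the exit of lymphocytes along the S1P gradient between tissue and blood and for keeping vessel walls tight. Inside the cell Sgpp1 returns S1P to sphingosine and Sgpl1 breaks it down irreversibly. In macrophages and monocytes the receptors are linked to migration, survival and cytokine release.

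Library totals ranged from 16512783 to 48460995 counts. Ezr, the targeted gene, lay between 497 and 741 CPM (counts scaled to a common library size) in the 9 WT libraries and between 93.9 and 282 CPM in the 9 Ezr-KOm libraries, with no overlap in any population. Ezr-KOm libraries kept 160 to 282 CPM in moMs, 126 to 234 CPM in tnsIMs and 93.9 to 167 CPM in matIMs. The WT ranges were 497 to 593, 515 to 679 and 611 to 741 CPM, so the Ezr RNA left differed by population. The 12 genes of the monocyte and macrophage list had counts in all libraries, and their summed level ran from 4999 to 8440 CPM. The sum of 4 MHC class II genes was 3714 to 6678 CPM in moMs, against 26000 to 57470 CPM in tnsIMs and, in matIMs, 40200 to 55690 CPM. Genes of other cell types were also present in every population. The summed level of 9 epithelial genes was 1771 to 4233 CPM in tnsIMs, against 87.1 to 210 CPM in moMs and 350 to 596 CPM in matIMs. The sum of 7 fibroblast genes was also highest in tnsIMs, at 100.6 to 164.7 CPM, against 27.3 to 61.8 CPM in moMs and 16.2 to 33.9 CPM in matIMs, and 5 of the 7 passed as higher in tnsIMs than in moMs in each genotype. For 8 dendritic cell genes it was 3235 to 4506 CPM in matIMs and at most 408 CPM elsewhere. The part of dendritic cells in the matIM results given here was not tested. The sums were 8.61 to 252 CPM for 6 B cell genes, 46.7 to 94.3 CPM for 11 T and NK cell genes, 119 to 811 CPM for 8 neutrophil genes and 416 to 8396 CPM for 7 alveolar macrophage genes, and the B cell gene Pax5 was at 0 in all Ezr-KOm moM libraries. In WT moMs, Chil3 made up 5905 of the mean alveolar macrophage sum of 5963 CPM, and 6 of its 7 genes passed as higher in WT matIMs. Csf3r (389 CPM) and Mmp8 (377 CPM) carried most of the mean neutrophil sum of 770 CPM there. Of the 8 neutrophil genes, 3 passed as higher in WT matIMs than in moMs and 2 as lower. In sorted bulk RNA, fewer cells of a type and less RNA per cell cannot be told apart.

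To ask how the system differed between the sorted populations, they were compared within each genotype. All were sorted 24 h after LPS, so cells were not followed from one population to another. S1pr1 and Spns2 were highest in tnsIMs in both genotypes, and Sgpp1 was highest in moMs. Of the 10 genes, 3 differed between WT tnsIMs and moMs at a Benjamini-Hochberg adjusted p under 0.05 (edgeR), 2 higher and 1 lower. Among all genes tested, 21.6% passed, 13% higher and 8.61% lower. Between WT matIMs and moMs 2 were lower and 0 higher (all genes: 24.8%, with 13.4% higher and 11.4% lower). Between WT matIMs and tnsIMs 2 were again lower and 0 higher (all genes: 18.5%, with 8.32% higher and 10.2% lower). In Ezr-KOm cells the counts were 3, 0 and 2 for the same comparisons, against 14.3% of all genes (9.23% higher and 5.04% lower), 23.3% (12.5% and 10.7%) and 18.2% (8.37% and 9.85%). For the 0, 2 of the 10 had an unadjusted p under 0.05, as did 5275 of all 15811 genes, and DESeq2 also called 0. With only 10 genes, these counts cannot tell the list from all genes. No test of the S1P genes as a list was run, and the results concern single genes. The median log2 fold change of the 10 genes in WT was -0.06, -0.12 and -0.20 in the order above, against 0.01, 0.01 and 0.04 for all genes.

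**Figure D1:**
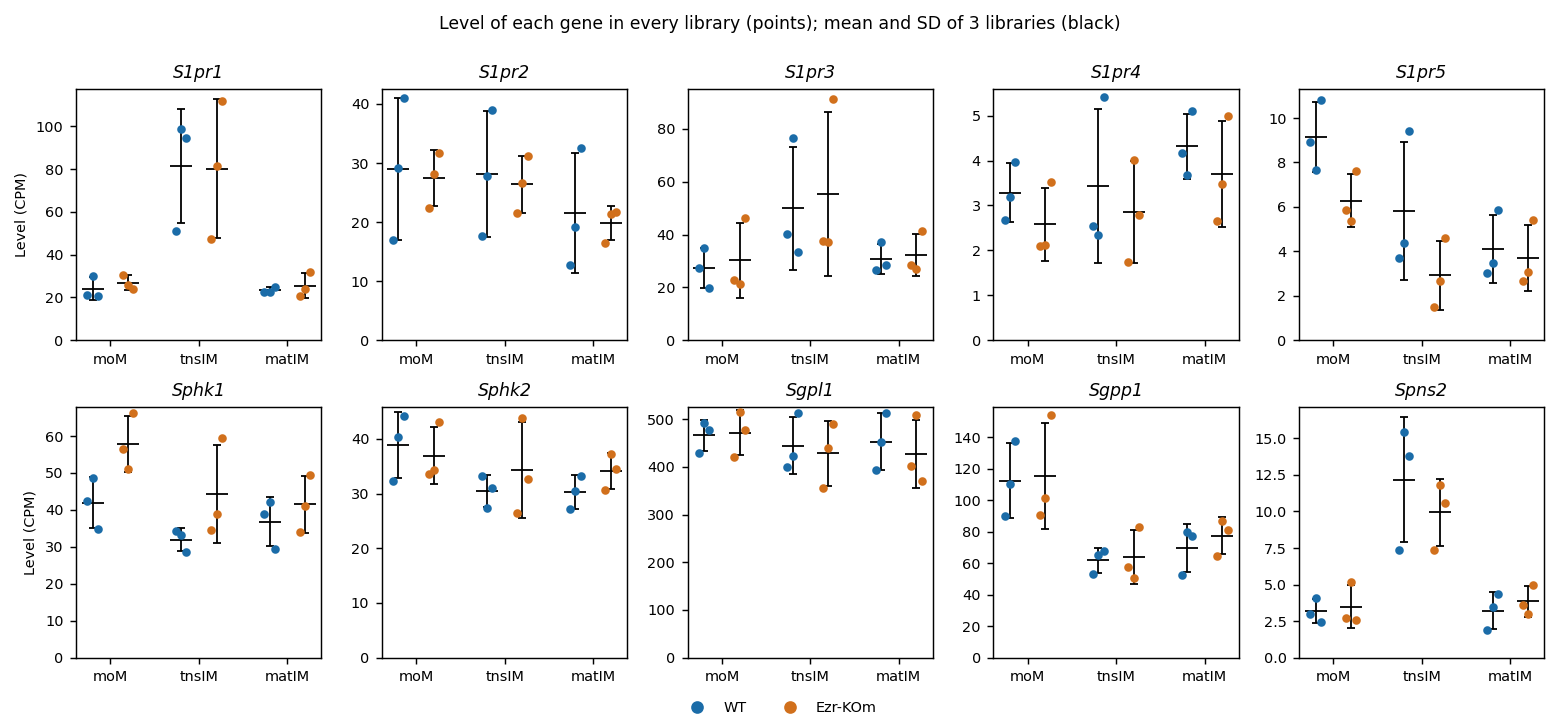
Level in CPM (vertical axes from 0) of each S1P gene in the 18 libraries, by population and genotype; points are libraries, black bars the mean and SD of 3 libraries. S1pr1 lies between 47.2 and 112 CPM in tnsIMs and at or below 31.9 CPM elsewhere, whereas Sgpl1 spans a narrow range in all groups.

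S1pr1 (ENSMUSG00000045092; GRCm39 chr3:115504082-115508721, minus strand) couples mainly to Gi proteins. In WT its level was 21.0, 30.2 and 20.8 CPM in moMs, 50.9, 98.7 and 94.8 CPM in tnsIMs, and 22.6, 22.6 and 25.1 CPM in matIMs. In Ezr-KOm cells it was 30.6, 26.03 and 23.8 CPM in moMs, 47.2, 81.7 and 112 CPM in tnsIMs, and 20.8, 23.9 and 31.9 CPM in matIMs. Every tnsIM library was above every moM and matIM library, and replicate 1 was the lowest tnsIM library in both genotypes. S1pr1 was 3.39-fold higher in WT tnsIMs than in moMs (log2 fold change 1.76, 95% CI 1.17 to 2.35, edgeR adjusted p = 0.0002) and 2.99-fold higher in Ezr-KOm tnsIMs (1.58, CI 1.00 to 2.17, adjusted p = 0.000776). In matIMs it was lower than in tnsIMs by 1.80 on the log2 scale in WT (edgeR adjusted p = 0.000134) and by 1.65 in Ezr-KOm cells (edgeR adjusted p = 0.000289). moMs and matIMs differed by -0.04 (CI -0.62 to 0.54) in WT and by -0.07 (CI -0.65 to 0.51) in Ezr-KOm cells, less than the spread between libraries. The study names S1pr1 among the genes of WT tnsIMs from these same libraries, so its tnsIM level is a description and not independent evidence.

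Spns2 (ENSMUSG00000040447; chr11:72342464-72380730, minus strand), the S1P exporter, was measured at low counts, 42 to 593 a library. In WT its level was 3.02, 4.10 and 2.44 CPM in moMs, 7.34, 15.4 and 13.8 CPM in tnsIMs, and 1.86, 3.46 and 4.32 CPM in matIMs. In Ezr-KOm cells it was 2.74, 5.17 and 2.56 CPM in moMs, 7.40, 11.8 and 10.6 CPM in tnsIMs, and 3.59, 2.96 and 4.99 CPM in matIMs. As for S1pr1, the 6 tnsIM libraries stood above the other 12 without overlap, and replicate 1 was the lowest in both genotypes. The log2 fold change of tnsIMs over moMs was 1.93 in WT (CI 1.16 to 2.69, edgeR adjusted p = 0.000878) and 1.51 in Ezr-KOm cells (CI 0.76 to 2.26, edgeR adjusted p = 0.00711). In matIMs Spns2 was lower than in tnsIMs by 1.91 in WT (edgeR adjusted p = 0.000829) and by 1.38 in Ezr-KOm cells (edgeR adjusted p = 0.00939). The latter had an edgeR adjusted p of 0.054 (-1.22) without Ezr-KOm matIM replicate 2. Set against the mean of moMs and matIMs, S1pr1 was higher in tnsIMs by 1.78 in WT and 1.62 in Ezr-KOm cells, and Spns2 by 1.92 and 1.44. These were the 2 of 10 genes called there in each genotype, where 14.6% and 11% of all genes passed.

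**Figure D2:**
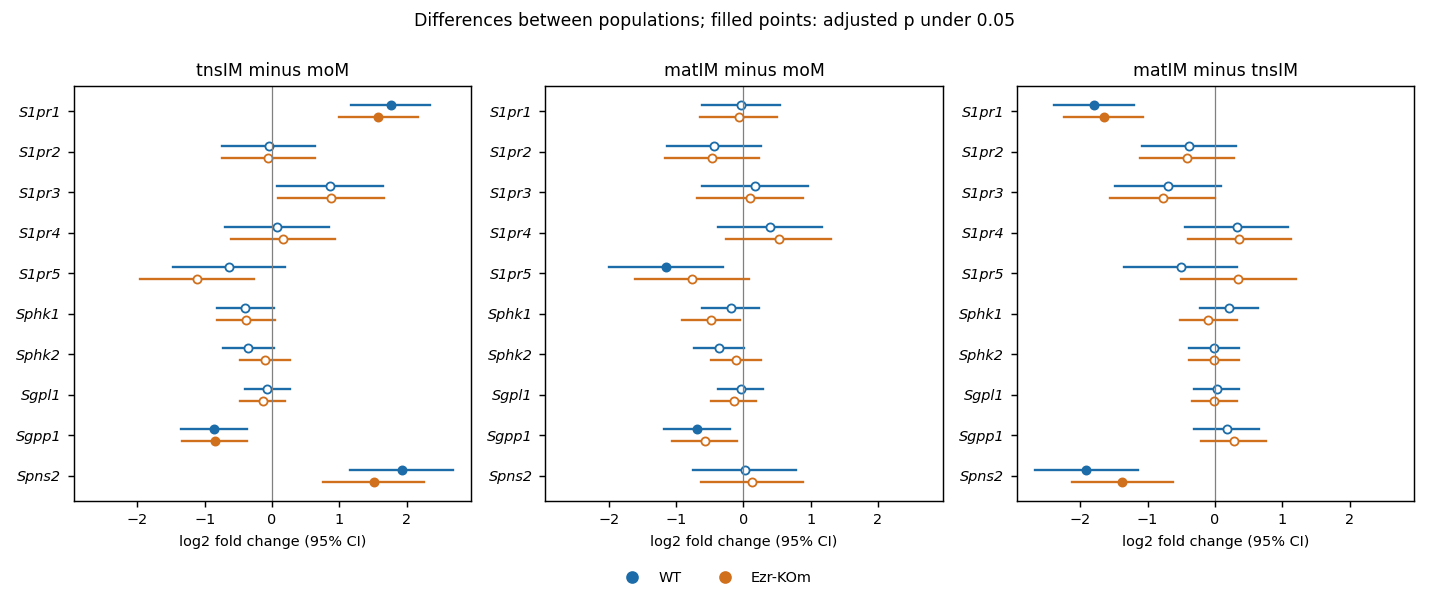
Differences between populations for the 10 S1P genes as log2 fold changes with 95% confidence intervals, WT and Ezr-KOm side by side; filled points passed an adjusted p under 0.05 (edgeR). S1pr1 and Spns2 lie on the positive side for tnsIM minus moM and on the negative side for matIM minus tnsIM in both genotypes, and Sgpp1 on the negative side for tnsIM minus moM.

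Endothelial genes were, like S1pr1 and Spns2, highest in tnsIMs, and endothelial cells are known to use both S1P genes. The 11 endothelial genes, among them Pecam1, Cdh5 and Cldn5, had counts in every library. They summed to 329 to 731 CPM in tnsIMs, above the moMs at 149 to 217 CPM and the matIMs at 101 to 133 CPM. Of the 11, 11 were higher in WT tnsIMs than in WT moMs and 10 in Ezr-KOm tnsIMs, at an adjusted p under 0.05 (edgeR). Between matIMs and moMs, where S1pr1 and Spns2 did not pass, 8 of the 11 were lower in matIMs in each genotype (median log2 -1.45 in WT and -1.55 in Ezr-KOm). The remaining genes in WT, Pecam1 (-0.02), Kdr (0.44) and Vwf (-0.42), did not pass there. The lowest endothelial sum among the 3 tnsIM libraries of each genotype was in replicate 1 (451 CPM in WT, 329 CPM in Ezr-KOm), the libraries with the lowest S1pr1 and Spns2. In WT tnsIMs the sum was highest in replicate 3 (731 CPM), while S1pr1 and Spns2 were highest in replicate 2. In Ezr-KOm tnsIMs the sum and S1pr1 were highest in replicate 3, and Spns2 in replicate 2. The epithelial sum was lowest in replicate 1 in WT tnsIMs (2588 CPM) but highest there in Ezr-KOm tnsIMs (3309 CPM). Relative to the endothelial sum, S1pr1 stood at 14.4% ± 1.27 in WT moMs, 14.6% ± 4.39 in WT tnsIMs and 21.2% ± 1.95 in WT matIMs (SD, n = 3). In Ezr-KOm cells these values were 15.0% ± 0.80, 16.0% ± 2.83 and 21.7% ± 5.33. Spns2 stood at 1.90%, 2.19% and 2.84% of the sum in WT and at 2.00%, 2.05% and 3.24% in Ezr-KOm cells. The sort gate required CD45, which endothelial cells are not expected to carry, yet all 11 endothelial genes had counts in every library. The part of endothelial, epithelial and fibroblast RNA in the S1pr1 and Spns2 results was not tested.

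**Figure D3:**
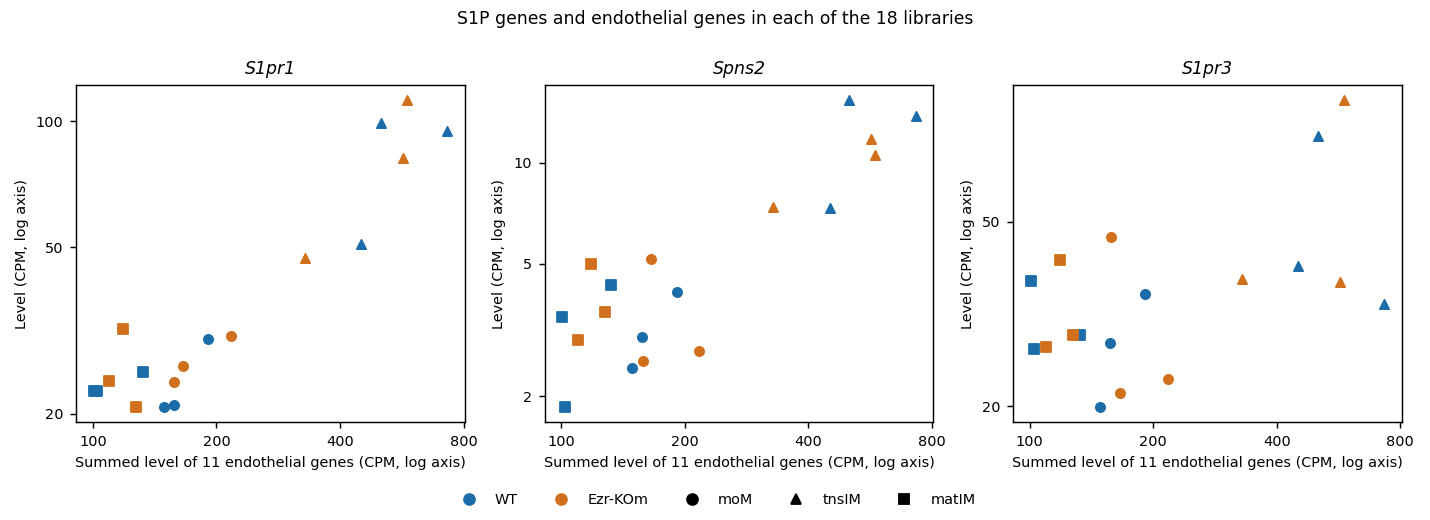
Level of S1pr1, Spns2 and S1pr3 (CPM, log axis) against the summed level of 11 endothelial genes (CPM, log axis) in the 18 libraries; colours give the genotype and symbols the population. The tnsIM libraries lie at the upper right for S1pr1 and Spns2, with endothelial sums of 329 to 731 CPM, and S1pr3 is more scattered.

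S1pr3 (chr13:51562675-51576833, plus strand), which couples to Gi, Gq and G12/13 proteins, had group means of 27.4 to 55.3 CPM, the highest in tnsIMs. The WT tnsIM libraries ranged from 33.2 to 76.4 CPM and the moM libraries from 19.9 to 35.0 CPM, and the Ezr-KOm ranges were 37.1 to 91.3 and 21.3 to 46.4 CPM, so the groups overlapped. The log2 difference of tnsIMs from moMs was 0.86 in WT (edgeR adjusted p = 0.114) and 0.87 in Ezr-KOm cells (edgeR adjusted p = 0.14), neither past the threshold. With the replicate number as a block within each genotype it passed in both, at 0.81 (adjusted p = 0.00155) and 0.84 (adjusted p = 0.00156). It also passed in Ezr-KOm cells without moM replicate 3 (1.33, adjusted p = 0.0423). Without WT tnsIM replicate 2 the WT difference was 0.45 (edgeR adjusted p = 0.488), and without Ezr-KOm tnsIM replicate 3 the Ezr-KOm difference was 0.34 (edgeR adjusted p = 0.573). The log2 difference of matIMs from tnsIMs was -0.69 in WT (edgeR adjusted p = 0.25) and -0.78 in Ezr-KOm cells (edgeR adjusted p = 0.183). With the replicate block within genotype these passed, at -0.62 (edgeR adjusted p = 0.0109) and -0.67 (edgeR adjusted p = 0.00621). Relative to the endothelial sum, S1pr3 had its lowest means in tnsIMs, at 9.53% in WT and 11.2% in Ezr-KOm cells. The means were 16.4% and 17.6% in moMs and 28.2% and 27.25% in matIMs. The part of the endothelial, epithelial and fibroblast RNA in the S1pr3 levels was not tested.

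S1pr5 (ENSMUSG00000045087; chr9:21154208-21159739, minus strand), known from natural killer cells and from patrolling monocytes, was low, with 36 to 275 counts a library. In WT it measured 8.94, 7.67 and 10.8 CPM in moMs, 3.71, 4.38 and 9.40 CPM in tnsIMs, and 3.02, 3.46 and 5.85 CPM in matIMs. In Ezr-KOm cells it measured 5.87, 5.36 and 7.62 CPM in moMs, 1.496, 2.67 and 4.58 CPM in tnsIMs, and 2.65, 3.06 and 5.41 CPM in matIMs. The moM libraries of WT lay above all WT matIM libraries, and replicate 3 was the highest in all 6 groups. S1pr5 was lower in WT matIMs than in WT moMs by a log2 difference of -1.15 (CI -1.99 to -0.31, edgeR adjusted p = 0.0427). The call was lost when moM replicate 1 (-1.20, adjusted p = 0.0581) or 3 (-1.04, adjusted p = 0.107) or matIM replicate 1 (-1.01, adjusted p = 0.121) or 2 (-1.07, adjusted p = 0.111) of WT was left out. The T and NK cell genes summed to 52.8 to 73.0 CPM in WT moMs and 64.9 to 76.4 CPM in WT matIMs. Of the 11, 2 were higher in WT matIMs than in moMs (Cd2 1.22, edgeR adjusted p = 0.00174, and Klre1 1.62, edgeR adjusted p = 0.0086) and 1 was lower (Klrb1c -0.84, edgeR adjusted p = 0.034). The NK cell genes Eomes (-0.66, edgeR adjusted p = 0.344) and Ncr1 (-0.36, edgeR adjusted p = 0.678) did not pass, and the part of such cells in the S1pr5 level was not tested. The other population differences of S1pr5 did not pass, and with a block of replicate numbers within genotype its differences of tnsIMs from moMs (WT -0.74, adjusted p = 0.0275, and Ezr-KOm -1.20, adjusted p = 0.00214) and of Ezr-KOm matIMs from moMs (-0.83, adjusted p = 0.0162) did.

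S1pr2 (chr9:20873657-20888077, minus strand), the receptor that couples strongly to G12/13 and restrains migration, had group means of 19.9 to 29.03 CPM. Its level was lowest in replicate 1 and highest in replicate 3 in all 6 groups, so the libraries of a number differed from each other as a set. None of its differences between populations passed the threshold (log2 differences of -0.47 to -0.05). With the replicate block within genotype, S1pr2 was lower in matIMs than in moMs (WT -0.45, adjusted p = 0.00783, and Ezr-KOm -0.46, adjusted p = 0.00621) and than in tnsIMs (WT -0.41, adjusted p = 0.016, and Ezr-KOm -0.40, adjusted p = 0.0169). S1pr4 (chr10:81333581-81335966, minus strand), a receptor of leukocytes, had group means of 2.58 to 4.32 CPM and 37 to 201 counts a library, and no difference between populations passed (log2 differences of 0.07 to 0.52).

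To set the receptors beside each other, levels were divided by the length of each gene's canonical transcript. The summed receptor level in CPM per kb was 23.6 ± 3.17 in WT moMs, 46.1 ± 13.4 in WT tnsIMs and 21.4 ± 2.95 in WT matIMs, and 23.5 ± 3.72, 45.3 ± 18.5 and 21.7 ± 4.97 in Ezr-KOm cells (SD, n = 3). S1pr1 made up 33.3% ± 4.19 of it in WT moMs, 57.5% ± 3.73 in WT tnsIMs and 36.3% ± 3.70 in WT matIMs. In Ezr-KOm cells its share was 38.4% ± 9.16, 58.2% ± 5.03 and 38.6% ± 0.82. S1pr3 followed with 24.6% to 33.2%, and S1pr4 and S1pr5 had the smallest shares in tnsIMs, between 2.48% and 5.09%. Taking the union of all annotated exons as the length, the S1pr1 shares were 31.4%, 54.5% and 33.4% in WT, and the largest share passed from S1pr1 to S1pr3 in matIMs (S1pr3 37.0% in WT and 38.0% in Ezr-KOm, against 33.4% and 35.6% for S1pr1).

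**Figure D4:**
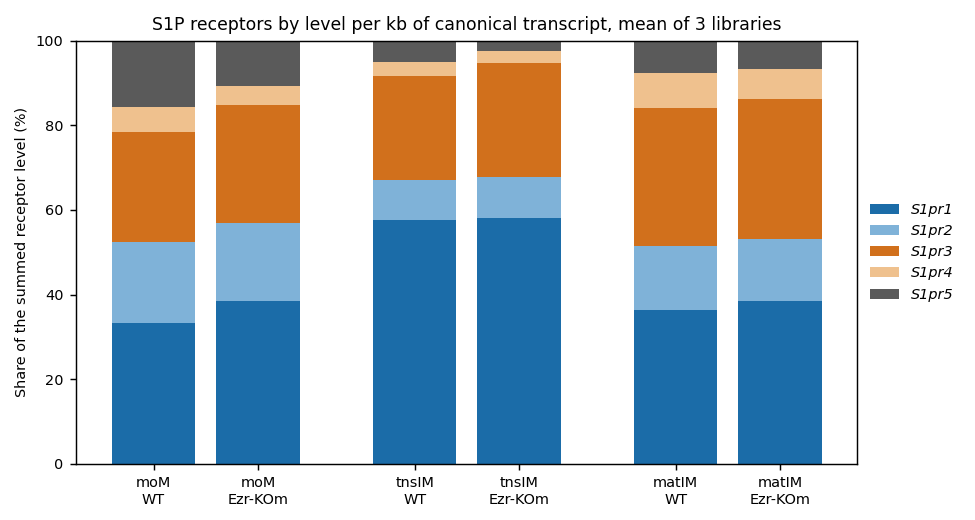
Share of each receptor in the summed S1P receptor level (percent, from levels in CPM per kb of canonical transcript), mean of 3 libraries per group. The S1pr1 share is 57.5% in WT and 58.2% in Ezr-KOm tnsIMs and at most 38.6% in the other groups.

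Among the kinases, Sphk1 (chr11:116421751-116427501, plus strand), the inducible cytosolic enzyme, had group means of 32.0 to 57.9 CPM, and Sphk2 (chr7:45358891-45367426, minus strand), found largely in the nucleus and mitochondria, 30.3 to 38.9 CPM. Neither passed the adjusted threshold between populations. For Sphk1 the log2 difference of tnsIMs from moMs was -0.39 in WT (edgeR adjusted p = 0.186) and -0.39 in Ezr-KOm cells (edgeR adjusted p = 0.241), and with the replicate block within genotype these passed, at -0.38 (adjusted p = 0.0306) and -0.42 (adjusted p = 0.0246), as did Ezr-KOm matIMs against moMs (-0.49, adjusted p = 0.00623). Per kb, the mean ratio of Sphk1 to Sphk2 over the 6 groups ran from 0.99 to 1.48. The Sphk2 value is uncertain, since 38.1% of its exon bases overlap exons of Rpl18 and Dbp on the other strand and the counting was not stated to use strand. In the other 9 genes at most 3.46% of exon bases were shared.

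The lyase Sgpl1 (chr10:60934421-60983482, minus strand) was the most abundant of the 10 genes per length, with group means of 103 to 114 CPM per kb, and it was the most even, its highest group mean 1.10 times its lowest. Its differences between populations lay between -0.14 and 0.03 on the log2 scale, and the widest interval among them ran from -0.48 to 0.19.

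The phosphatase Sgpp1 (ENSMUSG00000021054; chr12:75761023-75782503, minus strand) had the second highest level per length in moMs and matIMs, while in WT tnsIMs S1pr1 stood above it (26.8 against 18.1 CPM per kb). In WT it measured 89.7, 110 and 138 CPM in moMs, 52.9, 65.3 and 67.7 CPM in tnsIMs, and 52.3, 79.7 and 77.4 CPM in matIMs. In Ezr-KOm cells it measured 90.7, 102 and 154 CPM in moMs, 57.8, 50.6 and 83.3 CPM in tnsIMs, and 64.4, 86.9 and 81.1 CPM in matIMs. The moM libraries were above the tnsIM and matIM libraries of their own genotype without overlap. Sgpp1 was lower in tnsIMs than in moMs by a log2 difference of -0.86 in WT (CI -1.35 to -0.38, edgeR adjusted p = 0.0121) and of -0.85 in Ezr-KOm cells (CI -1.34 to -0.37, edgeR adjusted p = 0.017). WT matIMs were lower than WT moMs by -0.69 (CI -1.17 to -0.20, edgeR adjusted p = 0.0352), and Ezr-KOm matIMs by -0.58 (edgeR adjusted p = 0.0818), which passed with the replicate number as a block (-0.55, adjusted p = 0.00869). The calls were lost without WT moM replicate 3 (tnsIM against moM -0.70, adjusted p = 0.0625, and matIM against moM -0.55, adjusted p = 0.127). That of WT matIMs was also lost without moM replicate 2 (-0.73, adjusted p = 0.0522) or matIM replicate 1 (-0.56, adjusted p = 0.12). That of Ezr-KOm tnsIMs was lost without moM replicate 3 (-0.58, adjusted p = 0.131) or tnsIM replicate 1 (-0.80, adjusted p = 0.054) or 2 (-0.71, adjusted p = 0.0955).

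Sgpp1 and S1pr5 were the pair lower in WT matIMs than in moMs, and the 250 bases before their starts are given to show how unlike the letters are that lie there (RefSeq, GRCm38.p6, minus strand, 5′ to 3′). Capitals mark CACCC, the core bound by KLF factors, and GGGCGG, the GC box of Sp factors, on either strand. The windows lie at chr12:75735730-75735979 for Sgpp1 and at chr9:21248444-21248693 for S1pr5.
Sgpp1: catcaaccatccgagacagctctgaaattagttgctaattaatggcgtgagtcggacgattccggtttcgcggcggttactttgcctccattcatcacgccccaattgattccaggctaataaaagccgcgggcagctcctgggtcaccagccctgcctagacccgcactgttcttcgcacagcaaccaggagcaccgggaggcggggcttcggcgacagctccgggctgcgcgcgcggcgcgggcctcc
S1pr5: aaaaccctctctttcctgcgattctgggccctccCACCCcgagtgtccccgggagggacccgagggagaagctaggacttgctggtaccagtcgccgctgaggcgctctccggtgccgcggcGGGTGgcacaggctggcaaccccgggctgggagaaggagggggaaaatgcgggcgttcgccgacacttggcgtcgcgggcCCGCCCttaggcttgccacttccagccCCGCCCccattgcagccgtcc
The S1pr5 window held 2 matches to CACCC and 2 to GGGCGG, none of which overlap, and the Sgpp1 window held 0 of either. Of 32851 windows of this length before mouse gene starts, 52.0% held CACCC and 32.7% held GGGCGG. Windows were found for 9 of the 10 genes, with S1pr1 missing.

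To ask what loss of ezrin did to the system, Ezr-KOm was compared with WT in each population. No S1P gene passed an adjusted p under 0.05 (edgeR) in moMs, tnsIMs or matIMs, where 0.171%, 0.164% and 0.152% of all genes did. These were 27, 26 and 24 genes, and with the replicate block 42, 34 and 38 genes. DESeq2 also called 0 of the 10, and 1, 2 and 0 of them had an unadjusted p under 0.05, as did 592, 512 and 607 of all 15811 genes. By the study's own rule, an unadjusted p under 0.05 with a log2 fold change beyond 0.75, 0, 1 and 0 of the 10 were called, where 2.51%, 1.83% and 2.4% of all genes were.

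The 1 gene was S1pr5 in tnsIMs, lower in Ezr-KOm by a log2 difference of -1.01 (CI -1.86 to -0.16, edgeR adjusted p = 1.0), with libraries at 1.496, 2.67 and 4.58 CPM against 3.71, 4.38 and 9.40 CPM in WT, which overlap. The call was lost without WT tnsIM replicate 3 (-0.49) or Ezr-KOm tnsIM replicate 1 (-0.71) or 2 (-0.95). In moMs S1pr5 was at 5.36 to 7.62 CPM in Ezr-KOm and at 7.67 to 10.8 CPM in WT, without overlap (-0.54, CI -1.37 to 0.29). In matIMs the difference was -0.16 (CI -1.003 to 0.69). In all 9 pairs of libraries with the same population and replicate number, the Ezr-KOm library was the lower one. Populations of a genotype share mice, so these pairs are not independent of each other, and the share of all genes with such a count was not computed. Among the other members, S1pr4 was lower in 8 of the 9 pairs, and Sphk1 and Sgpp1 were each higher in 7. With the replicate number as a block, the S1pr5 difference was -0.99 in tnsIMs (edgeR adjusted p = 0.183), -0.55 in moMs (edgeR adjusted p = 0.811) and -0.16 in matIMs (edgeR adjusted p = 0.972), none past the threshold.

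Sphk1 showed the opposite sign. In moMs it lay at 51.0 to 66.1 CPM in Ezr-KOm and at 34.9 to 48.6 CPM in WT, and in tnsIMs at 34.6 to 59.5 and 28.5 to 34.2 CPM, without overlap in either. For 3 against 3 libraries without overlap, as also for S1pr5 in moMs, the smallest exact permutation p is 0.1. The share of all genes without overlap was not counted. The log2 differences of 0.46 (CI 0.03 to 0.89) and 0.47 (CI 0.04 to 0.90) each had an interval that left out 0, but were under the fold the study's rule requires, and the edgeR adjusted p was 1.0 in both. The moM difference was 0.34 without replicate 3 of WT and 0.35 without that of Ezr-KOm, and the tnsIM difference was 0.38 and 0.23 in the same way, with an unadjusted p above 0.05 each time. In matIMs the groups overlapped (0.17, CI -0.26 to 0.60).

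S1pr1 differed between genotypes by 0.16 (CI -0.42 to 0.74) in moMs, -0.02 (CI -0.59 to 0.55) in tnsIMs and 0.12 (CI -0.46 to 0.70) in matIMs. In each population the libraries of the genotypes overlapped. Spns2 differed by 0.13, -0.29 (CI -1.01 to 0.43) and 0.25, and Sgpp1 by 0.04, 0.04 and 0.15. The remaining genes, S1pr2, S1pr3, S1pr4, Sphk2 and Sgpl1, differed by between -0.35 and 0.17, each with an interval that included 0. The effect of genotype was also compared between populations by an interaction term. No S1P gene passed an adjusted p under 0.05 (edgeR or DESeq2), and neither did any other gene by edgeR (0% of 15811 in each of the 3 tests, with 233, 268 and 183 genes at an unadjusted p under 0.05). The largest interaction among the 10 was S1pr5 for matIMs against tnsIMs, at 0.85 (CI -0.34 to 2.05).

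**Figure D5:**
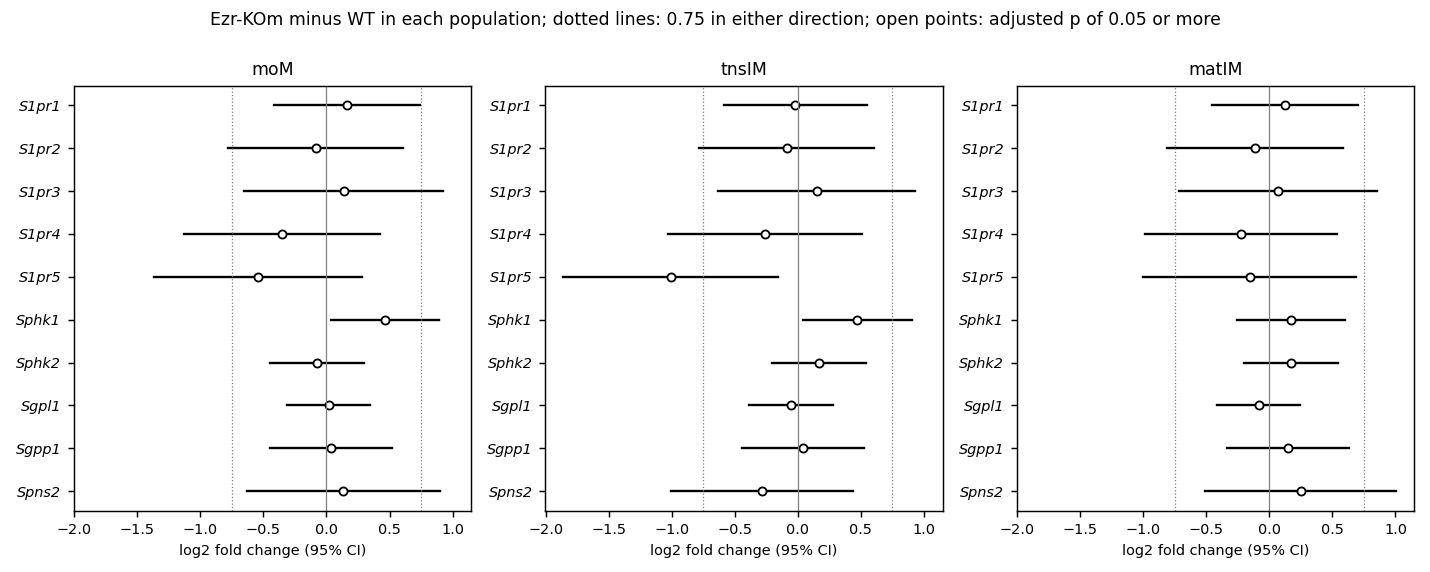
Ezr-KOm minus WT in each population as log2 fold changes with 95% confidence intervals; dotted lines mark 0.75 in either direction. The intervals of all 10 genes in matIMs, of 9 in moMs and of 8 in tnsIMs include 0, S1pr5 in tnsIMs lies at -1.01 and Sphk1 at 0.46 in moMs and 0.47 in tnsIMs.

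Genes that feed or surround S1P were counted in 4 lists. Of 8 genes measured for S1P transport and turnover, 3 were higher and 0 lower in WT tnsIMs than in moMs (median log2 0.78, all genes 0.01, of which 13% were higher and 8.61% lower), led by the lipid phosphatases Plpp3 (1.97, edgeR adjusted p = 1.45e-05) and Plpp1 (1.57, edgeR adjusted p = 1.48e-05). In matIMs against moMs 2 were higher and 0 lower, Plpp2 (0.76, edgeR adjusted p = 0.00228) and Sgpp2 (2.07, edgeR adjusted p = 0.0475, from 0.167 CPM in moMs). In matIMs against tnsIMs 0 were higher and 3 lower, with Plpp3 at -2.48 (edgeR adjusted p = 8.13e-07) and Plpp1 at -1.11 (edgeR adjusted p = 0.000242). In Ezr-KOm cells 3, 1 and 0 were higher and 0, 0 and 2 lower. The shares of all genes in each direction given above for the 10 members also stand beside the counts of these lists. Plpp3 was highest in tnsIMs and lowest in matIMs, as were the endothelial sums (23.5 CPM in WT tnsIMs, against 6.02 CPM in moMs and 4.20 CPM in matIMs), whose part was not tested.

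Of 13 ceramide synthesis genes tested, 1 was higher and 3 lower in WT tnsIMs than in moMs (median -0.22, all genes 13% higher and 8.61% lower). The ceramide synthase Cers4 was higher (1.00, edgeR adjusted p = 0.0409), and the desaturase Degs1 (-0.56, edgeR adjusted p = 0.00304) and the synthase Cers6 (-1.06, edgeR adjusted p = 0.00418) were lower. In WT matIMs 4 were lower than in moMs (all genes 11.4%), led by Cers6 (-1.08, edgeR adjusted p = 0.00265) and Sptlc2, a subunit of the enzyme that starts the pathway (-0.46, edgeR adjusted p = 0.00425). Between matIMs and tnsIMs 0 differed. The Ezr-KOm counts were 1 higher and 2 lower, 0 and 3, and 0 and 0.

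Of 17 genes of ceramide release and conversion, 1 was higher and 5 lower in WT tnsIMs than in moMs (median -0.46, all genes 13% higher and 8.61% lower). In WT matIMs 0 were higher and 9 lower than in moMs (median -0.60, all genes 13.4% higher and 11.4% lower). Among the 17 were the ceramidases, which release the sphingosine that the kinases use. Acer2 was higher in tnsIMs than in moMs (1.97, edgeR adjusted p = 3.48e-05), with 55.1 CPM against 14.1 CPM and 5.74 CPM in matIMs, highest in tnsIMs and lowest in matIMs like the endothelial sums, whose part was not tested. Acer3 was lower in tnsIMs (-0.75, edgeR adjusted p = 0.00219), as was the sphingomyelin synthase Sgms2 (-1.14, edgeR adjusted p = 0.00396). In matIMs against moMs Sgms2 (-2.35, edgeR adjusted p = 3.16e-06) and the acid ceramidase Asah1 (-0.60, edgeR adjusted p = 0.000539) were the leading genes. In matIMs against tnsIMs 3 were lower (all genes 10.2%), led by Acer2 (-3.26, edgeR adjusted p = 2.46e-07) and Sgms2 (-1.21, edgeR adjusted p = 0.00271). In Ezr-KOm cells 1 was higher and 4 lower, 0 and 7, and 0 and 3.

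Of 13 genes for receptor coupling and trafficking, 2 were higher in WT tnsIMs than in moMs (median 0.04, all genes 13%). They were the G protein subunits Gnai1 (2.84, edgeR adjusted p = 0.000555, from 0.58 CPM in moMs) and Gna11 (1.06, edgeR adjusted p = 0.00275). Both were lower in WT matIMs than in WT tnsIMs (by 3.27, edgeR adjusted p = 0.000152, and by 0.82, edgeR adjusted p = 0.0157). In WT matIMs Foxo1, a transcription factor known to act on S1pr1 in T cells through Klf2, was higher than in moMs (0.62, edgeR adjusted p = 0.00249) and tnsIMs (0.63, edgeR adjusted p = 0.00279). Arrb2, an arrestin, was higher in matIMs than in moMs (0.56, edgeR adjusted p = 0.0204), and Gnai3 higher than in tnsIMs (0.44, edgeR adjusted p = 0.0157). Klf2 itself was lower in matIMs than in moMs (-0.68, edgeR adjusted p = 0.0347), while the S1pr1 difference there was within its spread. In Ezr-KOm cells 2 were higher and 1 lower, 2 and 2, and 2 and 2. Between genotypes 0 genes of the 4 lists passed an adjusted p under 0.05 (edgeR), and by the study's rule 1 did, Gnai1, higher in Ezr-KOm moMs and named after its values were seen.

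The genes whose log2 levels over the 18 libraries were most like each called member were listed as a description, since libraries share population and genotype. For S1pr1 they were Pecam1, an adhesion molecule of endothelium and leukocytes (Pearson r = 0.98), B3gnt3 (0.96) and Cttn (0.96). For Spns2 they were Cttn (0.95), Sgce (0.95) and Mxra7 (0.94). For Sgpp1 they were Map3k3 (0.96), Scyl3 (0.96) and Il13ra1 (0.95), the last at 372 CPM in WT moMs and at 192 and 203 CPM in the other WT populations. For S1pr5 they included Fmo5 (0.92) and Pink1 (0.87). Between the members themselves the highest r was that of S1pr1 with Spns2, at 0.93.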

How the data were processed

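Per the labels and the study's methods, RNA of sorted cells was made into SMART-Seq v4 and Nextera XT libraries, and the authors aligned reads with STAR 2.7.9a to GRCm39 and deposited raw counts per gene of a Gencode annotation. The strand column counted is not stated. All 18 columns of the deposited count table were matched to samples by name. The study gives 3 mice per genotype, so the populations of a genotype share mice, but not which replicate number is which mouse.

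The counts were fitted with edgeR 4.0.16 in R 4.3.3 (TMM, filterByExpr with a minimum count of 10, 1 quasi-likelihood model of 6 groups), with Benjamini-Hochberg adjustment over 15811 genes. Each genotype comparison also used the study's rule (unadjusted p under 0.05, absolute log2 fold change above 0.75). The 95% intervals come from the same fit. p-values set a difference against the spread between these libraries. The main fit treats all libraries as independent, although populations of a genotype share mice. Levels are CPM with TMM library sizes. Levels per kb used the Ensembl canonical transcript of a Gencode annotation on GRCm39, a length chosen after values by exon union were seen. The fit was tested on simulated data. Replicates differed beyond sampling noise (chi-square per degree of freedom 21.9 to 96.3).

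Same-numbered libraries of the 2 genotypes deviated together in all 9 pairs (r 0.10 to 0.32, other numbers at most 0.05). A paired fit with a replicate block is therefore given where it changes a call of a member between 2 groups. For tnsIMs against the mean of the others, only numbers of members called with a block are given. Between populations of a genotype r was 0.09 to 0.40 (other numbers at most 0.03). Alternatives were DESeq2 1.42.0, other scaling and filters, robust fits, subsets and leaving out each library. The members and gene lists were chosen with earlier results of these data known. All 10 members are named, those with a call and S1pr1 with every library. For the wider lists, the 2 genes of smallest p in each direction of each WT population comparison are named, and the 3 genes most like each member called between WT populations, of which 1 is not reported here.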

Additional observations from a re-analysis of the deposited data

How the results depend on the processing

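S1pr1 kept its direction and call under all 27 alternatives in tnsIMs against moMs (WT 1.61 to 1.99, Ezr-KOm 1.29 to 1.84) and in matIMs against tnsIMs (WT -2.06 to -1.66, Ezr-KOm -1.93 to -1.39), and Spns2 did in WT (1.74 to 2.18, and -2.21 to -1.67). The genotype difference of S1pr1 changed sign when 1 library was left out (WT replicate 2 or 3 or Ezr-KOm replicate 1 of the tnsIMs, Ezr-KOm replicate 3 of the matIMs), with values of -0.30 to 0.24 in tnsIMs and -0.06 to 0.25 in matIMs over the alternatives. With library totals as the only scaling, 0 members were called in WT matIMs against moMs. That scaling moved the median gene by 0.13 in Ezr-KOm matIMs against moMs and by at most 0.10 in the other comparisons.

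With the replicate block, members called in Ezr-KOm matIMs against moMs were 2 (all genes: 4625). In Ezr-KOm tnsIMs against the mean of the others they were 4 (all genes: 2544). With the replicate block within genotype, 6 members were called in tnsIMs against moMs in each genotype, 4 in matIMs against tnsIMs in each, 4 in Ezr-KOm matIMs against moMs, and 4 (WT) and 5 (Ezr-KOm) in tnsIMs against the mean of the others. Calls over all genes also rose with that block. In tnsIMs against moMs they rose from 3411 to 4747 in WT and from 2257 to 3403 in Ezr-KOm cells. In matIMs against tnsIMs they rose from 2926 to 3773 in WT and from 2881 to 3861 in Ezr-KOm cells. In Ezr-KOm matIMs against moMs the rise was from 3679 to 4783. Against the mean of the others it was from 2312 to 3323 in WT tnsIMs and from 1732 to 2669 in Ezr-KOm tnsIMs. Neither block removed a call of S1pr1, Spns2, Sgpp1 or S1pr5. Without 1 library, members called ranged from 0 to 2 in WT matIMs against moMs, 2 to 5 in Ezr-KOm tnsIMs against moMs (5 without tnsIM replicate 3), 0 to 2 in Ezr-KOm matIMs against moMs, 1 to 2 in Ezr-KOm matIMs against tnsIMs, and 0 to 1 between genotypes in tnsIMs. Counts over all genes without 1 library, or with library totals as the only scaling, are not given here. These ranges are therefore not a result about the members as a list, and the cause of the changes was not tested. S1pr4, S1pr5 and Spns2 had the fewest counts, as few as 37, 36 and 42 in a library.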
